A study of Rattus norvegicus with 6 samples.

Results

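The type I interferon response genes described here are 46 genes named by symbol, and they were looked up by that symbol among the 13526 genes of the deposited table. Of the 46, 45 had a row. Ifitm1 had none and was not analysed here. The genes were sorted by known role into receptors, nucleic acid sensors and double-stranded RNA enzymes, transcription factors, antiviral effectors, the ISG15, ubiquitin and ADP-ribose system, and other induced genes.

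The cells were primary vascular smooth muscle cells (VSMCs), grown from the media of male rat thoracic aorta after the adventitia and intima had been stripped, and all samples had the genotype WT. In the OM plus EMPA group, 3 samples received osteogenic media with 1 μM empagliflozin, which blocks the renal glucose transporter SGLT2. In the OM group, 3 samples received osteogenic media alone. All 6 samples shared the base medium with serum and antibiotics and the calcifying additions of 10 mM β-GP and 3.5 mM CaCl2, so a culture without them was not analysed here. The labels give 5 days of culture and the study's figure legend gives a shorter time. In the titles the medium is written Pi, and in the treatment protocol OM, which is used here. Elsewhere in the study Pi stands for inorganic phosphate, a calcifying condition separate from OM. The medium and its additions given here therefore rest on the protocol and not on the titles. It is not stated whether samples within a group are separate animals or separate cultures, so the p-values reflect how far these samples spread, and that spread may be technical.

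Type I interferons are antiviral cytokines made after a cell senses viral or displaced nucleic acid. They bind the receptor chains IFNAR1 and IFNAR2, whose kinases JAK1 and TYK2 activate STAT2. STAT2 and IRF9 are parts of the complex ISGF3, which binds the interferon-stimulated response element (ISRE) before a large set of genes, many of which block viral replication. Many of its sensors and some of its transcription factors, such as IRF7, are themselves interferon-induced, so that the response feeds back on itself, and smooth muscle cells, like most nucleated cells, carry the receptor.

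Values carry no unit in the column headers and were taken as TPM, since they sum to nearly the same total in every library (997954 to 998293). TPM is a unit of RNA abundance per transcript length that is set to a common total, so that the sequencing depth behind a value is unknown. Transcripts of the mitochondrial genome took 10.3% to 10.9% of TPM with empagliflozin and 8.0% to 9.69% in OM alone. Differences were tested with limma on log2(TPM + 1). The 12564 genes that averaged 1 TPM or more entered the fit, and p-values were adjusted over all of them by the Benjamini-Hochberg method. A gene was called lower or higher at an adjusted p of at most 0.05. Every log2 fold change below is OM plus EMPA minus OM on this scale, which understates the change of low genes. RNA of whole cultures cannot tell fewer cells of a type from less RNA per cell.

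The promoter letters that interferon factors read are shown here for genes of each kind, those that fell and those that were not called. Promoters were taken from RefSeq, build GRCr8, as 250 bases before to 50 bases after each gene's start, and 34 of the 45 genes matched by symbol. The core of the ISRE was searched as GAAANNGAA on both strands. The core of the gamma-activated sequence (GAS), another interferon-responsive element, was searched as TTCNNNGAA, which reads alike on both strands. The ISRE core and the GAS core can share the letters GAA. Each stretch is written in the direction of its gene and ends before the start, with the ISRE matches in capitals. The GAS core, which the stretches of Parp14 and Ifitm3 also hold, is left in lower case there. The first 7 genes fell with empagliflozin and the next 3 were not called.
Ifit3 (chr1:241527267-241527325, plus strand): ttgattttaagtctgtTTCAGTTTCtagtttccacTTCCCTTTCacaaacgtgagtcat
Cmpk2 (chr6:48802743-48802782, plus strand): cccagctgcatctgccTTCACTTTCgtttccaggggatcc
Rsad2 (chr6:48788243-48788282, minus strand): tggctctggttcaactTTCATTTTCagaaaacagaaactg
Ifih1 (chr3:67684004-67684043, minus strand): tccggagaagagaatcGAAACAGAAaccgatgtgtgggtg
Oas1a (chr12:41330409-41330454, plus strand): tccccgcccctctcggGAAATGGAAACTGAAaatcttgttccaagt
Irf7 (chr1:205800068-205800107, minus strand): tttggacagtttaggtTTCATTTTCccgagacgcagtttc
Parp14 (chr11:78408042-78408081, plus strand): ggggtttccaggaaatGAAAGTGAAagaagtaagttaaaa
Ifitm3 (chr1:205541779-205541818, minus strand): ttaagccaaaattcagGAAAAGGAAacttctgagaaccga
Ifi27 (chr6:128355212-128355251, plus strand): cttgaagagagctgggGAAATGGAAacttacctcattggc
Lgals3bp (chr10:104127875-104127914, minus strand): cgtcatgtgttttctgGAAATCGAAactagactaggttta

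The ISRE core was found in 19 of the 34 promoters (55.9%), against 9.71% of all 33469 promoters of the table. It was found in 13 of the 23 matched genes that were called lower and in 6 of the 11 that were not called. A further 11 genes had no matched promoter: Ddx58, Dhx58, Zbp1, Oas2, Adar, Mx2, Ifit2, Isg15, Usp18, Rtp4 and Irf2. All of them but Irf2 were called lower, so the shares and medians here leave out many lower genes, most sensors among them. The 19 genes with the letters had a median log2 fold change of -0.44 and the 15 without them one of -0.32, and the 15 include Mx1, Oasl and Herc6, which fell by 1.38, 1.10 and 0.90 on the log2 scale. By role, the letters stood in 7 of 8 effectors, 5 of 6 other induced genes, 3 of 4 sensors, 3 of 6 genes of the ISG15, ubiquitin and ADP-ribose system, 1 of 6 transcription factors and 0 of 4 receptors. The GAS core was found in 8 of the 34 promoters (23.5%), against 8.87% of all promoters. Irf1, an early target of interferon, had it 142 bases before its start, shown here with the match in capitals.
Irf1 (chr10:38417777-38417816, plus strand): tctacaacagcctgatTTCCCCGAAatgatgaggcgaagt
A match is a description of letters, not of binding, and these windows leave out sites further away.

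Across the 45 genes, 33 were lower in the OM plus EMPA group, 0 were higher and 12 were not called. Over all genes tested, 4.86% were called lower and 2.06% higher (611 and 259 genes). With median-ratio scaling, which centres the typical gene at 0, these were 380 lower and 394 higher, and 29 of the 45 interferon genes were lower and 0 higher. The median log2 fold change of the 45 was -0.45, and that of all genes tested -0.05. At an unadjusted p under 0.05, 40 were lower and 0 higher, against 17.6% and 6.42% of all genes tested. Means were lower with empagliflozin for 45 of 45 genes, except that under median-ratio scaling the log2 fold changes of Ifngr1 and Irf2 were slightly above 0. For 41 genes all 3 OM plus EMPA libraries lay under all 3 OM libraries, a pattern seen in 22.5% of all genes tested, and for 0 genes all lay above, as for 7.85% of all genes tested. The 4 genes whose groups overlapped were Ifngr1, Irf2, Ifitm2 and Ifi27.

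**Figure D1:**
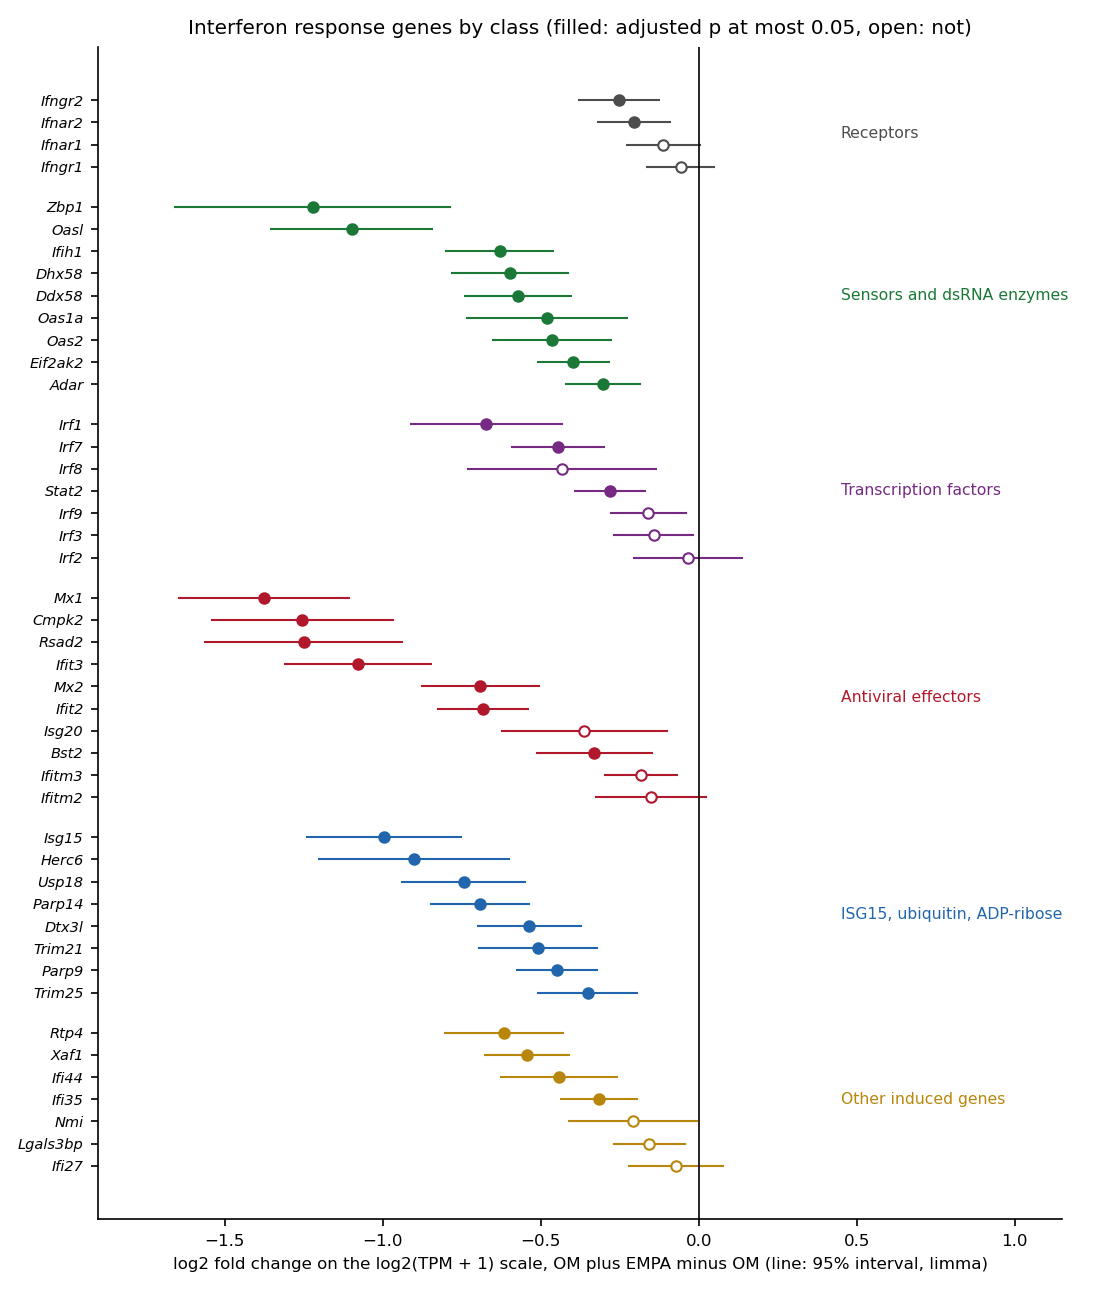
Difference in mean log2(TPM + 1) between OM plus EMPA and OM (log2 fold change, x axis) of each of the 45 genes (y axis, grouped by role), with the 95% interval from limma as a line. Filled points were called lower. All points lie left of 0, from -1.38 for Mx1 to -0.03 for Irf2, and all 9 sensors and all 8 genes of the ISG15, ubiquitin and ADP-ribose system are filled.

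The decreases were graded. With empagliflozin 7 of the 33 lower genes were at no more than 50% of their OM mean, 18 between 50% and 75% and 8 above 75%. The 7 were Mx1, Cmpk2, Rsad2, Zbp1, Oasl, Ifit3 and Isg15. These counts sort genes by measured size and carry no test.

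The receptors moved least. Ifngr2 and Ifnar2 were called lower by small amounts, Ifnar1 and Ifngr1 were not called, and the median of the 4 was -0.16. Ifnar1, which encodes a chain of the type I receptor, was at 49.4, 45.9 and 50.7 TPM in OM plus EMPA, against 52.4, 52.8 and 52.8 TPM in OM. The groups did not overlap, but the log2 fold change of -0.11 (SE 0.05, 95% interval -0.23 to 0.00) had an adjusted p of 0.218. Ifnar2, the chain that holds the ligand most tightly, was at 22.8, 23.5 and 23.4 TPM with empagliflozin, against 26.4, 27.1 and 27.3 TPM in OM. Its 3 treated values lay close together and under all OM values (log2 fold change -0.21, SE 0.05, adjusted p = 0.0485).

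IFNGR1 and IFNGR2 form the receptor of interferon gamma, the type II interferon, whose targets overlap with those of type I. Ifngr2 was at 21.0, 20.5 and 21.7 TPM in OM plus EMPA, against 26.1, 24.5 and 25.3 TPM in OM, again without overlap (log2 fold change -0.25, SE 0.05, adjusted p = 0.0356). Ifngr1, the most abundant of the 4 chains, was at 255, 242 and 249.6 TPM with empagliflozin, against 269, 247 and 260.5 TPM in OM, and the groups overlapped (log2 fold change -0.06, SE 0.05, 95% interval -0.16 to 0.05, adjusted p = 0.487). Neither receptor call held in any of the 6 fits with 1 library left out, where the adjusted p of Ifnar2 reached 0.142 and that of Ifngr2 0.111. Under median-ratio scaling these were 0.146 and 0.0715, and Ifnar2 was also at 0.0535 without the filter on low values and at 0.0901 without the mitochondrial transcripts.

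All 9 nucleic acid sensors and double-stranded RNA enzymes fell, with a median log2 fold change of -0.57 and a range of -1.22 to -0.30. The cytosolic RNA receptors RIG-I, MDA5 and LGP2 are encoded by Ddx58, Ifih1 and Dhx58. Ifih1 was at 32.7, 28.7 and 32.2 TPM in the OM plus EMPA group, against 52.8, 48.0 and 45.7 TPM in the OM group. Ddx58 was at 72.7, 74.6 and 82.7 TPM with empagliflozin and 125, 106 and 113 TPM in OM. For both genes the highest treated library stayed well under the lowest OM library. The log2 fold changes were -0.63 for Ifih1 (SE 0.07, adjusted p = 0.00459), -0.57 for Ddx58 (SE 0.07, adjusted p = 0.00599) and -0.60 for Dhx58, a regulator of the other two.

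Oasl, an OAS-like protein that binds RIG-I in human cells, showed one of the larger changes of the class. It was at 143, 125 and 144 TPM with empagliflozin and at 353, 267 and 271 TPM in OM. The OM libraries spread more than the treated ones, with OM 1 the highest, and the groups stayed far apart (137 ± 10.5 against 297 ± 48.8 TPM, SD, n = 3 each, log2 fold change -1.10, SE 0.11, adjusted p = 0.00314 by limma). Eif2ak2 encodes PKR, the kinase that halts translation on binding double-stranded RNA. Its 3 treated libraries were nearly identical at 90.2, 90.1 and 91.5 TPM, and its OM libraries were at 127, 117 and 115 TPM (log2 fold change -0.40, SE 0.05, adjusted p = 0.00524).

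Zbp1, a sensor of Z-form nucleic acid that can start necroptosis, was the least abundant sensor, with a mean of 3.73 TPM in OM plus EMPA and 10.1 TPM in OM, and had the largest log2 fold change of the class at -1.22. Oas1a and Oas2, synthases of the second messenger that activates RNase L, had log2 fold changes of -0.48 and -0.46. Adar, which edits adenosine in double-stranded RNA and so limits sensing of the cell's own RNA, had the smallest at -0.30. Of the 9 calls, 6 held without any 1 library. Oas1a passed only without OM plus EMPA 1 or OM 2 (adjusted p 0.0879 to 0.136 in the other 4 fits), Oas2 lost its call without OM plus EMPA 2, OM 1 or OM 3 (0.0573 to 0.0618), and Adar lost it without OM 1 (0.0512). Oas1a also missed the threshold under median-ratio scaling (0.0588). The assembled span of Oas1a in the table, 55952 bases, is longer than the 10717 bases of its reference gene and overlaps Oas1i, so reads of these paralogs may be split between rows.

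Among the 7 transcription factors 3 fell, Irf7, Irf1 and Stat2, and Irf2, Irf3, Irf8 and Irf9 were not called. The median log2 fold change was -0.28. Irf7, the factor that amplifies interferon production once it has been induced, was the most abundant, at 804, 784 and 744 TPM with empagliflozin and at 1153, 1007 and 1018 TPM in OM. These groups lay far apart (777 ± 30.7 against 1059.5 ± 81.3 TPM, SD, n = 3 each, log2 fold change -0.44, SE 0.06, adjusted p = 0.00859 by limma). Irf1, a factor induced by both interferon types and by NF-κB, was at 27.7, 23.2 and 29.0 TPM in OM plus EMPA, against 48.6, 39.7 and 40.7 TPM in OM. It had the largest change of the class (log2 fold change -0.67, SE 0.10, adjusted p = 0.0115).

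STAT2 and IRF9 are parts of ISGF3. Stat2 was at 182, 177 and 195 TPM with empagliflozin, against 229.8, 219 and 222 TPM in OM, a smaller difference without overlap (log2 fold change -0.28, SE 0.05, adjusted p = 0.0165). Irf9 was at 63.0, 58.1 and 64.2 TPM in OM plus EMPA, against 71.1, 67.6 and 68.3 TPM in OM. Every treated value of Irf9 lay under every OM value, and the test was not passed (log2 fold change -0.16, SE 0.05, 95% interval -0.28 to -0.04, adjusted p = 0.113). The span of Irf9 lies wholly within that of Rnf31 in the table.

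Irf8, a factor best known from myeloid cells, was the least abundant of the 45 genes, at 2.93, 4.12 and 4.08 TPM with empagliflozin and at 5.18, 5.02 and 5.75 TPM in OM (log2 fold change -0.43, SE 0.13, adjusted p = 0.0907). Irf3, which is present before infection and is activated by phosphorylation, and Irf2, an antagonist of Irf1 at shared sites, had log2 fold changes of -0.14 and -0.03. The calls of Irf7 and Irf1 held without any 1 library. That of Stat2 was lost without OM plus EMPA 1, OM plus EMPA 2, OM 1 or OM 3, at adjusted p values of 0.0571 to 0.0588.

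Among the 45 genes, the antiviral effectors held the largest changes. Of 10 with a row, 7 fell, 0 rose and 3 were not called, with a median log2 fold change of -0.69. Mx1, a dynamin-like GTPase that traps viral nucleoproteins, was at 55.5, 61.6 and 74.2 TPM in the OM plus EMPA libraries and at 189, 150.2 and 161 TPM in the OM libraries. Its lowest OM value stood far above its highest treated one (log2 fold change -1.38, SE 0.12, adjusted p = 0.00193). Cmpk2, a mitochondrial nucleotide kinase, was at 43.8, 41.3 and 43.3 TPM with empagliflozin, tightly grouped, and at 129.8, 93.8 and 90.7 TPM in OM, where OM 1 stood above the others (log2 fold change -1.25, SE 0.12, adjusted p = 0.00314).

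Some proteins of the IFIT family bind viral RNA that lacks the cap methylation of host mRNA. Ifit3 was at 259.6, 234 and 277 TPM in OM plus EMPA, against 628, 488 and 520.3 TPM in OM (log2 fold change -1.08, SE 0.10, adjusted p = 0.00246). Ifit2, its neighbour on chromosome 1, was at 149, 161 and 170.5 TPM with empagliflozin and 274, 246 and 254 TPM in OM (log2 fold change -0.68, SE 0.06, adjusted p = 0.00232). Neither gene's groups overlapped, and the ratio of treated to OM mean was 47.1% for Ifit3 and 62.2% for Ifit2.

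Rsad2, which encodes viperin, an enzyme that makes a chain-terminating nucleotide, had a log2 fold change of -1.25, and Mx2, the paralog of Mx1, one of -0.69. Bst2, which encodes tetherin and holds budding virions at the membrane, was at 667 ± 12.1 TPM with empagliflozin and 843 ± 101 TPM in OM (SD, n = 3 each, log2 fold change -0.33, adjusted p = 0.0484 by limma). Without any 1 of the OM plus EMPA libraries or without OM 3 its adjusted p was 0.0842 to 0.141, and it was 0.0535 without the filter, 0.0535 without mitochondrial transcripts and 0.0858 under median-ratio scaling. Ifitm2 and Ifitm3, membrane proteins that block viral fusion, and the exonuclease Isg20 were not called (log2 fold changes -0.15, -0.18 and -0.36). The other 6 effector calls held without any 1 library. Mx, IFIT and IFITM genes have close paralogs, and the sources used here do not say how reads shared between copies were assigned.

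**Figure D2:**
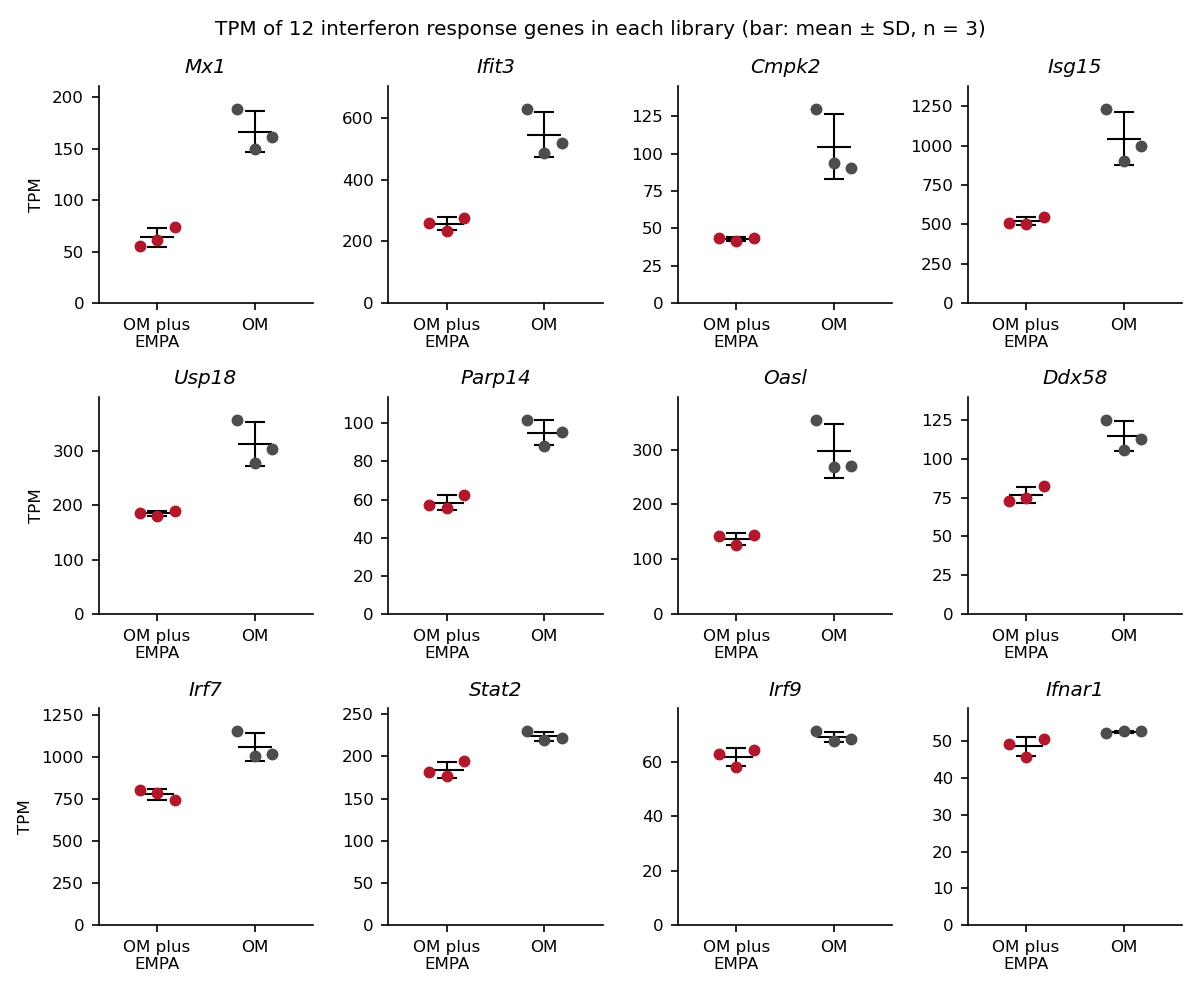
TPM (y axis, each panel from 0) of 12 genes in each of the 3 OM plus EMPA and 3 OM libraries, with the mean and SD as bars. The groups are well separated for Mx1, Ifit3, Cmpk2, Isg15, Usp18, Parp14, Oasl, Ddx58 and Irf7, closer for Stat2 and closest for Irf9 and Ifnar1, where the treated libraries reach 64.2 and 50.7 TPM and the lowest OM libraries are at 67.6 and 52.4 TPM.

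All 8 genes of the ISG15, ubiquitin and ADP-ribose system fell, with a median log2 fold change of -0.61 and a range of -0.995 to -0.35. Isg15, the ubiquitin-like protein that is attached to newly made proteins, was at 505, 503 and 549 TPM in OM plus EMPA, against 1231, 904 and 996 TPM in OM. Treated libraries averaged 49.7% of the OM mean (519 ± 25.7 against 1044 ± 169 TPM, SD, n = 3 each, log2 fold change -0.995, SE 0.11, adjusted p = 0.00383 by limma). Isg15 (chromosome 5, bases 166784148 to 166785435, minus strand) lies wholly within the span of Agrn in the table. Counting is not stated to use strand, so some reads of such overlapping genes may not be told apart. Whether their exons overlap was not examined. Usp18 removes ISG15 and also blocks signalling at IFNAR2, so it is both a target and a brake of the response. It was at 186, 179.6 and 189 TPM with empagliflozin and at 356, 277 and 303 TPM in OM (log2 fold change -0.74, SE 0.08, adjusted p = 0.00454).

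The PARP enzymes of this class attach ADP-ribose to proteins, and PARP9 works as a pair with the ubiquitin ligase DTX3L. Parp14 was at 57.2, 55.5 and 62.6 TPM in OM plus EMPA, against 102, 88.2 and 95.5 TPM in OM (log2 fold change -0.69, SE 0.07, adjusted p = 0.00301). Parp9 was at 85.8, 81.7 and 91.1 TPM with empagliflozin and 123, 113 and 117 TPM in OM (log2 fold change -0.45, SE 0.05, adjusted p = 0.00524). Both had evenly spread libraries within each group. Dtx3l fell by 0.54 on the log2 scale. Herc6, the ligase that attaches ISG15 in mice, fell by 0.90, Trim21, a cytosolic antibody receptor, by 0.51, and Trim25, a ligase that activates RIG-I, by 0.35. All calls but that of Trim25 held without any 1 library, and Trim25 was at adjusted p values of 0.0531 to 0.0826 without OM plus EMPA 2, OM plus EMPA 3 or OM 3.

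The 7 other induced genes were mixed, with 4 lower and 3 not called and a median log2 fold change of -0.32. Xaf1, which antagonises the apoptosis inhibitor XIAP, was at 55.0, 58.3 and 62.1 TPM in the OM plus EMPA libraries and 87.8, 87.6 and 81.4 TPM in the OM libraries (log2 fold change -0.54, SE 0.06, adjusted p = 0.00383). Rtp4, a chaperone of receptors at the cell surface, was at 150.5, 146 and 172 TPM with empagliflozin and 258, 218 and 244 TPM in OM (log2 fold change -0.62, SE 0.08, adjusted p = 0.0064). In both the gap between the groups was wider than the range within either.

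Ifi35 varied very little among treated libraries, at 42.1, 42.3 and 42.3 TPM, and was at 56.2, 51.7 and 50.6 TPM in OM (log2 fold change -0.32, SE 0.05, adjusted p = 0.014). Ifi44 was at 81.6, 76.7 and 81.1 TPM in OM plus EMPA, against 124, 99.4 and 104 TPM in OM, where OM 1 was the highest (log2 fold change -0.44, SE 0.08, adjusted p = 0.0198). Ifi35 binds Nmi, a partner of STAT proteins, which had a log2 fold change of -0.21 and was not called. Ifi27 and the secreted glycoprotein gene Lgals3bp, with log2 fold changes of -0.07 and -0.16, were not called either. Without OM plus EMPA 2 only Xaf1 and Rtp4 of this class were called, with Ifi35 at an adjusted p of 0.0533 and Ifi44 at 0.0749. Ifi44 was also at 0.0529 without OM plus EMPA 1, 0.0523 without OM plus EMPA 3 and 0.0507 without OM 3.

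Most of the highly abundant genes were not called. The 6 genes at 1000 TPM or more in OM were Ifitm3, Ifi27, Lgals3bp, Ifitm2, Irf7 and Isg15, which held 63.9% of the summed TPM of the 45 in OM, and 4 of them were not called. Their median log2 fold change was -0.17, against -0.48 for the 39 less abundant genes, of which 31 were called. Ifitm3 was at 2898, 3019.8 and 2969 TPM with empagliflozin and 3439, 3324 and 3322 TPM in OM. Its groups did not overlap, and its adjusted p was 0.0705. Ifi27 was at 1540.2, 1421 and 1450.3 TPM in the OM plus EMPA libraries and 1668, 1444 and 1536 TPM in the OM libraries, which overlapped. The 39 less abundant genes summed to 3715, 3557 and 3838 TPM with empagliflozin and to 6249.7, 5207 and 5375 TPM in OM, and all 45 to 12061 ± 235 against 15549 ± 1129 TPM (SD, n = 3 each).

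**Figure D3:**
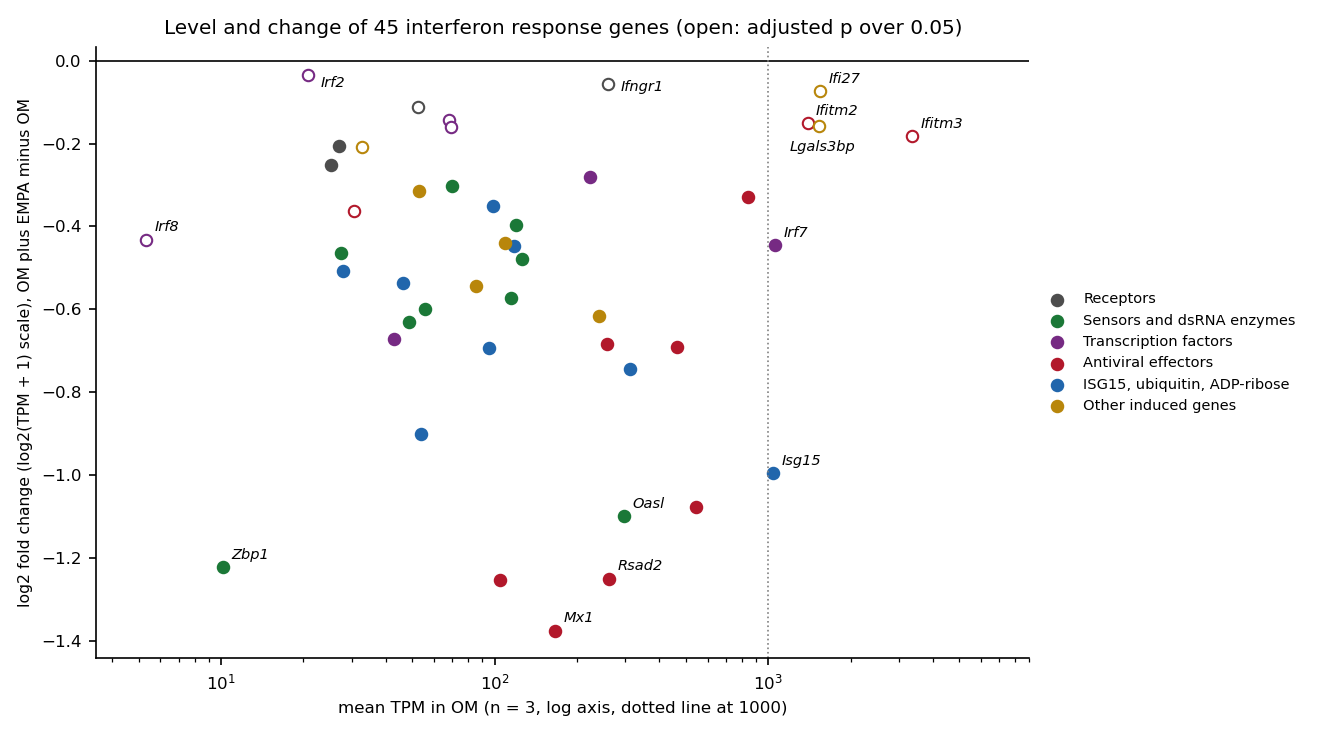
Mean TPM in OM (x axis, log scale, n = 3) against the log2 fold change, OM plus EMPA minus OM (y axis), for the 45 genes, coloured by role, with open points for an adjusted p over 0.05. Right of the dotted line at 1000 TPM, Ifitm3, Ifi27, Lgals3bp and Ifitm2 lie between -0.18 and -0.07, while Irf7 and Isg15 lie at -0.44 and -0.995.

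Libraries of a group did not stand at the same level across these genes. OM 1 was the highest OM library for 40 of the 45 genes and OM 2 the lowest for 30. Among treated libraries, OM plus EMPA 2 was the lowest for 30 genes and OM plus EMPA 3 the highest for 23. OM 1 also had the lowest mitochondrial share of the 6 libraries, 8.0%. With TPM rescaled without mitochondrial transcripts, 31 of the 45 genes were lower, with a median log2 fold change of -0.42. Any other part of the mitochondrial share in the result was not tested. Without OM 1, 27 of the 45 genes were lower, Isg15 had a log2 fold change of -0.87 and Mx1 one of -1.28. Over the 6 fits that each left out 1 library, 24 to 31 genes were lower and 0 higher, fewest without OM plus EMPA 2, and 23 genes were called in all 6.

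**Figure D4:**
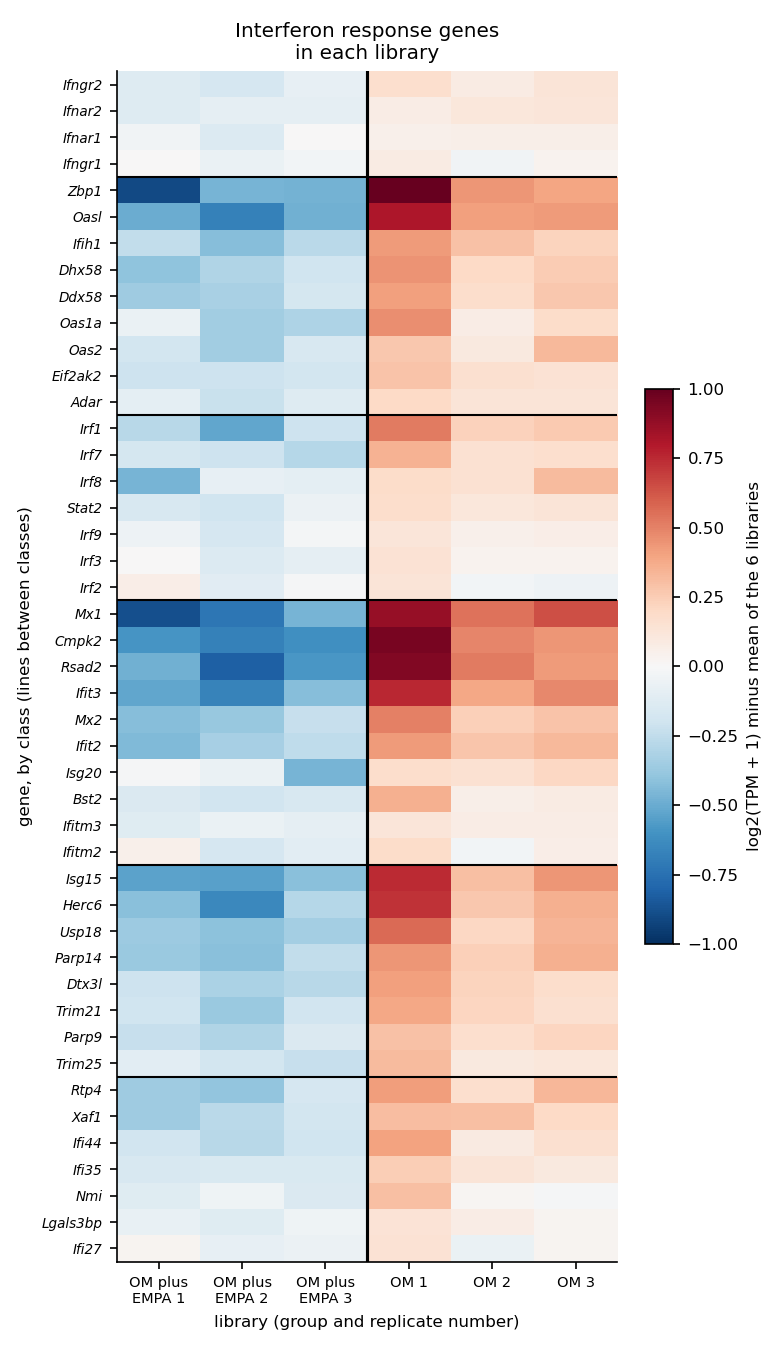
Log2(TPM + 1) of each of the 45 genes (rows, by role) in each library (columns), minus the gene's mean over the 6 libraries, from blue (lower) to red (higher) on a scale of -1 to 1. The 3 OM plus EMPA columns are blue and the 3 OM columns red for nearly all rows, and OM 1 is the deepest red.

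Several of the genes are neighbours. In the authors' coordinates, for which the sources used here name no build, Ifit2 ends 5530 bases before Ifit3 on chromosome 1, Rsad2 and Cmpk2 lie 14096 bases apart on opposite strands of chromosome 6, and Parp9 and Dtx3l overlap by 530 bases on opposite strands of chromosome 11. The log2 fold changes of Rsad2 and Cmpk2 were both -1.25, those of Parp9 and Dtx3l -0.45 and -0.54, and those of Mx1 and Mx2, which lie 79972 bases apart on chromosome 11, -1.38 and -0.69. Mx1 spans bases 36799660 to 36825256 of chromosome 11 and Irf7 bases 196367341 to 196370970 of chromosome 1, both on the minus strand. Ifnar2, Ifnar1 and Ifngr2 form a run on chromosome 11 with gaps of 56580 and 27539 bases. Of the 45 genes, 17 have a span that overlaps another row of the table.

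Other genes of the pathway were looked up from lists of 117 symbols, chosen by role but with earlier results of these data known. For these symbols 83 rows were found and 78 tested. Rnaseh2a and Slfn4 had 2 rows each, and Sting1 and Cgas were each searched under 2 symbols. Of the 78 tested, 35 were lower, 0 higher and 43 not called, beside 4.86% lower and 2.06% higher of all genes tested. The median log2 fold change of the 78 was -0.30. At an unadjusted p under 0.05, 49 were lower and 0 higher, beside the same 17.6% and 6.42% of all genes tested. Of 12 ligand symbols only Ifne had a row, at 1.00, 1.78 and 1.98 TPM with empagliflozin and 1.25, 1.40 and 1.07 TPM in OM, and its groups overlapped (log2 fold change 0.19, SE 0.18, adjusted p = 0.556). Ifnb1 had no row and was not analysed here. Among 18 upstream sensors, adaptors and kinases, 4 were lower, with a median of -0.12. Trex1, the exonuclease that removes cytosolic DNA, and Ikbke, a kinase of IRF3 and IRF7 that is itself induced by cytokines, had log2 fold changes of -0.48 and -0.42 (adjusted p = 0.0108 each). The endosomal RNA receptor Tlr3 had one of -0.47 (adjusted p = 0.0166, and 0.0550 and 0.0609 without OM plus EMPA 2 or OM 1).

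Below the receptors, Jak2, a kinase of the interferon gamma receptor and of many cytokine receptors, was at 45.5, 47.0 and 50.8 TPM in OM plus EMPA, against 65.2, 71.7 and 71.3 TPM in OM. It fell clearly (log2 fold change -0.53, SE 0.06, adjusted p = 0.00451) and was called without any 1 library. Jak1 was at 129.7, 129 and 128 TPM with empagliflozin and 124, 126 and 121 TPM in OM, and Tyk2 at 8.18, 8.27 and 8.54 TPM against 10.1, 10.1 and 9.68 TPM. Neither kinase of the type I receptor was called (log2 fold changes 0.06 and -0.23, adjusted p = 0.353 and 0.0919). Batf2 and Irf5, induced transcription factors, had log2 fold changes of -0.84 and -0.53 (adjusted p = 0.0467 and 0.0539), and Batf2 was lost in all 6 fits with a library left out, at adjusted p values of 0.0606 to 0.114.

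Of 16 negative regulators 1 was lower, with a median of -0.06. It was Nlrc5, also the activator of MHC class I genes, with a log2 fold change of -0.66 (adjusted p = 0.0208), which was at adjusted p values of 0.0537 to 0.0754 without OM plus EMPA 2, OM plus EMPA 3, OM 1 or OM 3. Otud5 and Socs1, a feedback inhibitor of JAK kinases, had log2 fold changes of -0.18 and -0.42 and were not called. Of 37 further interferon-induced genes, 28 were lower, 0 higher and 9 not called, with a median of -0.49. The 3 with the smallest p were the immunity-related GTPase genes Igtp and Irgm and the OAS-like gene Oasl2, with log2 fold changes of -0.82, -0.60 and -0.78. The largest falls of this list were those of the chemokine genes Cxcl11 and Cxcl10, with log2 fold changes of -1.41 and -1.38. Without OM plus EMPA 2 the count over all 78 was 23 lower, beside 245 of the 12592 genes tested in that fit.

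**Figure D5:**
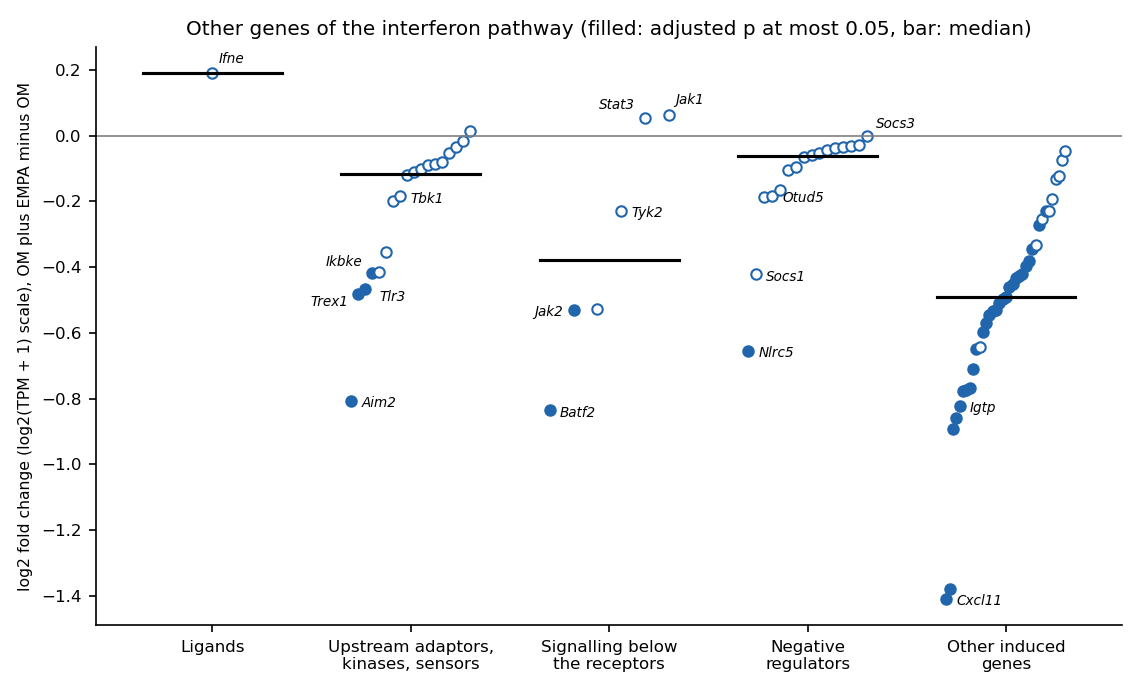
Difference in mean log2(TPM + 1) between OM plus EMPA and OM (log2 fold change, y axis) of 78 other genes of the pathway in 5 lists (x axis), with filled points for an adjusted p of at most 0.05 and a bar at each median. The medians are -0.12 for the upstream genes, -0.38 for signalling below the receptors, -0.06 for negative regulators and -0.49 for other induced genes, and the single ligand lies at 0.19.

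Interferon genes are also high in leukocytes, so markers of other cells were read in the same libraries. Of 14 leukocyte and macrophage markers, 3 had a row, and their sum was 145 to 152 TPM with empagliflozin and 153 to 162 TPM in OM. Cd68 was lower (log2 fold change -0.83, adjusted p = 0.0378), Cd14 and Fcer1g were not called, and the defining markers Ptprc, Adgre1 and Csf1r had no row and were not analysed here. Of 8 endothelial markers only Erg had a row, at 3.39 TPM with empagliflozin and 2.79 TPM in OM. Smooth muscle markers were present for 9 of 10 symbols, all but Des. They summed to 3479 to 4029 TPM in treated libraries and 2592 to 3124 TPM in OM libraries. Of the 9, 5 were higher, Acta2, Tagln, Cnn1, Lmod1 and Cald1, beside 2.06% of all genes tested. The other 4 were not called. Smtn, Mylk and Tpm2 had log2 fold changes of 0.15, 0.22 and 0.09, and Myh11 went the other way at -0.17. The 7 fibroblast markers with a row summed to 12799 to 13440 TPM in treated libraries and 12589 to 13803 TPM in OM libraries. In every library this was above the sum of the smooth muscle markers. Of 6 fibroblast markers tested, Dcn and Pdgfra were lower and 4 were not called, with a median log2 fold change of 0.07. Of the 4, Col1a1, Col1a2 and Pi16 had log2 fold changes of 0.23, 0.26 and 0.26 and Lum one of -0.09. None of these 8 marker calls held in all 6 fits with 1 library left out, where the largest adjusted p was 0.114 for Cd68 (without OM 3), 0.0910 for Acta2 (without OM 3) and 0.151 for Pdgfra (without OM plus EMPA 2). The part of any of these in the interferon result was not tested.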

How the data were processed

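RNA of 6 samples of rat VSMCs was sequenced in read pairs by the authors. Tools named by the submitters' processing notes are HISAT2 2.0.5, fastp, DESeq2 and RSEM, with no role for any of them, and the sources used here do not give the genome build of the table. The authors deposited TPM of each sample for 13526 genes, 1637 of them without a symbol, and no counts. The same table holds the authors' own log2 fold change, p-value and FDR of each gene, which were not used, and a second deposited table is a subset chosen by them. TPM keep no depth, so no precision by depth can be given.

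The members, the lists and the tests were chosen with earlier results of these data known. Genes that averaged 1 TPM or more were kept. The limma model on log2(TPM + 1) had the group as its only term and a trend of variance with mean, with 4 residual and 3.8 prior degrees of freedom, and was tested on simulated data. All 46 members are accounted for. Values in every sample are given for up to 4 members of each class with the smallest p and for Stat2, Irf9, Irf7, Ifnar1 and Ifnar2, and up to 3 genes of each other list are named, with Jak1, Tyk2 and Ifnb1. 1 item that the rule names is not reported here. Dhx58, Zbp1, Ifitm3, Ifi27 and Bst2 were described further, and Cxcl10 and Cxcl11 named, after their values were seen. Alternatives were a pseudocount of 0.1 TPM, no filter, median-ratio scaling, TPM rescaled without the 16 mitochondrially encoded rows, the replicate number as a block, and each library left out in turn. The fits used limma 3.58.1 in R 4.3.3, tables were made with pandas 2.3.3 and numpy 2.4.6, and figures with matplotlib 3.10.9, all 3 in Python 3.11.15.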

Additional observations from a re-analysis of the deposited data

How the results depend on the processing

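Of the 45 genes, 33 were lower with a pseudocount of 0.1 TPM, 31 without a filter, 29 with median-ratio scaling, 31 without mitochondrial transcripts and 24 to 31 with 1 library left out, and 0 were higher in any of these fits. Ifngr1 turned to 0.0019 and Irf2 to 0.0223 on the log2 scale under median-ratio scaling, both without a call. With 1 library left out Irf2 ranged from -0.0763 (without OM plus EMPA 1) to 0.0213 (without OM 1), and was also above 0, at 0.0128, without OM plus EMPA 2. The other pathway genes gave 23 to 30 lower with 1 library left out, against 35. Over all genes, 259 were higher and 611 lower, so that 29.8% of calls were higher. Median-ratio scaling gave 394 higher and 380 lower, or 50.9% higher, and the fits with 1 library less had between 80 and 216 genes higher and between 245 and 438 lower. The cause was not tested.

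With the replicate number as a block 449 genes were higher and 951 lower, and 35 interferon genes were lower, Ifitm2 (adjusted p = 0.0450 from limma) and Ifitm3 (0.0485) in addition. Same-numbered libraries deviated together with correlations of 0.0979, 0.162 and 0.0575 across genes. These were not all over 0.1, and each library correlated best with its own number, which is a hint from the data and not from the design, so the numbers were not taken as a pairing. TPM carry no depth, and the size of a change that 3 libraries a group could miss is limited by the spread between them.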
